A study of Mus musculus with 20 samples.

Results

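The transcripts of 10 genes were followed through mouse kidneys that were recovering from injury: 5 inhibitors of metalloproteinases (Timp1, Timp2, Timp3, Timp4 and Reck) and 5 secreted ADAMTS proteases (Adamts1, Adamts4, Adamts5, Adamts9 and Adamts15). They were taken by symbol from the 55471 gene identifiers of the count table, and all 10 were found and passed the filter on low counts in every comparison. Bulk RNA-seq had been made from whole kidneys of female mice, labelled as 2 months old, in experiments on telomerase reverse transcriptase (TERT) and the renewal of the glomerulus. In the first experiment, 3 i-TERTci mice of mixed background carried an actin-rtTA+ transgene, active in all tissues, and a tetOp-TERTci+ transgene that it drives, so that doxycycline switched on a catalytically inactive TERT. The 4 actin-rtTA+ mice of the same background carried the driver alone and drank the same doxycycline (2 mg/ml, for 15 days). Both groups were sampled 8 days after the drug was withdrawn. In the second experiment, mice on a Balb/c background received 1 intravenous dose of Adriamycin (ADR, 12 mg/kg), a drug toxic to podocytes, or saline, and were sampled 18 days later. The groups were TERT KO/KO ADR (3 libraries), TERT KO/KO saline (3), TERT WT/WT ADR (3) and TERT WT/WT saline (4). The TERT deletion is constitutive, in all cells. The study describes its TERT KO/KO mice in the ADR model as first-generation knockouts, with TERT WT/WT littermates as controls.

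Tissue inhibitors of metalloproteinases (TIMPs) are small secreted proteins that block the active site of matrix metalloproteinases (MMPs) and of related ADAM and ADAMTS enzymes. Timp3 differs from the others by staying bound to the extracellular matrix and by inhibiting aggrecan-cleaving ADAMTS proteases well, Timp2 also takes part in the activation of pro-MMP2 at the cell surface, and Timp1 is known as a gene induced in injured and scarring kidney. Reck is a membrane-anchored MMP inhibitor. The ADAMTS proteases chosen here are secreted enzymes known for cutting large proteoglycans of the matrix, such as versican and aggrecan.

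Promoter sequences were available from RefSeq (build GRCm38.p6) for 7 of the 10 genes, covering 250 bases before to 50 after the start of each gene in RefSeq, which is not the start given by GENCODE at the end of the text for Timp2, Timp3 and Adamts9. Those of Timp1, Timp3 and Adamts1 are shown, because Timp1 and Adamts1 were higher and Timp3 was lower after ADR in the results below, and Adamts4, Adamts5 and Adamts15 are only named. Capitals mark matches to the searched motifs, and each sequence runs 5′ to 3′ on the strand of its gene.
Timp1 (chrX:20869916-20870215, + strand, GRCm38.p6): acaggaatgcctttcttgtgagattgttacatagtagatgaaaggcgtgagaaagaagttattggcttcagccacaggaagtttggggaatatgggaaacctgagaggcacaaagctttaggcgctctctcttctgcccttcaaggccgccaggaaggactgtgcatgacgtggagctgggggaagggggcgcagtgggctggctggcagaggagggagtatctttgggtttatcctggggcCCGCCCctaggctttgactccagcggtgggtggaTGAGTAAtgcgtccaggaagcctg
Timp3 (chr10:86300162-86300461, + strand, GRCm38.p6): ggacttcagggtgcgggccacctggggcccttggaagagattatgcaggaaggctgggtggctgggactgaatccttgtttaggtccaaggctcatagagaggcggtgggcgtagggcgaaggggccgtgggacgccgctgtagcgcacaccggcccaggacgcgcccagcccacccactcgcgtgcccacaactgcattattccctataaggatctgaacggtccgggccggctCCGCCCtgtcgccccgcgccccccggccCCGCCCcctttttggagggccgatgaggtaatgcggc
Adamts1 (chr16:85803064-85803363, - strand, GRCm38.p6): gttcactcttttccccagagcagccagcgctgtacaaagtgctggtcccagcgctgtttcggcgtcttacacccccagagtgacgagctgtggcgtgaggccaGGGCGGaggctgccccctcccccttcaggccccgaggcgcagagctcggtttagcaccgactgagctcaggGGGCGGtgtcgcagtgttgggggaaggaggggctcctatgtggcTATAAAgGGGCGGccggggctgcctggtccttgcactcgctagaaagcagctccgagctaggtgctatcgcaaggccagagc
The capitals in Timp1 are a GC box (GGGCGG on either strand, here at base -8 from the start) and a variant of the AP-1 motif, TGAGTAA, whose first base is base 27 of the transcribed strand. The variant was in 1 of the 7 promoters and in 2.68% of 32851 mouse promoters of the same length. Those in Timp3 are 2 GC boxes, and those in Adamts1 are 3 GC boxes and a TATA box (TATAAA) at base -32. A GC box was in 6 of the 7 promoters, and in 35.7% of all promoters. The TATA box was in 1 of the 7 and in 13.6% of all. The letters of the AP-1 motif (TGANTCA), the CRE (TGACGTCA), the STAT motif (TTCNNNGAA) and an NF-kB motif (GGGA, any base, TTTCC), searched on both strands, were in none of the 7 windows, while they were in 7.81%, 1.79%, 8.30% and 0.411% of all promoters. A match is only a match of letters, and its absence concerns this window alone.

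Before the comparisons, the libraries themselves were inspected. Total counts ran from 39323498 to 48399322 per library. TERT KO/KO ADR replicate 2 stood apart: the summed level of 6 hepatocyte markers was 311434 there in counts per 1000000 counts (CPM), against 7.01 to 165 CPM in the other 19 libraries, and its proximal tubule markers summed to 18.0 CPM, against 1527 to 11044.5 CPM elsewhere. It was left out of every group mean and fit below, and values with it are given where a call depends on it. Tert itself was counted in all groups: i-TERTci replicates 1, 2 and 3 had 1070, 1086 and 230 counts, against 87 to 164 in the actin-rtTA+ libraries. The TERT KO/KO libraries used had 51 to 210 counts, against 122 to 379 in TERT WT/WT libraries, and the left-out library had 0. Counts over the whole gene thus leave the TERT KO/KO genotype unchecked.

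Levels between genes are compared as CPM per kilobase of exon. Timp3 was the most abundant of the 10 transcripts in each of the 6 groups, with a mean of 239 CPM per kb in TERT KO/KO saline and 263 CPM per kb in TERT WT/WT saline kidneys. Timp2 came next in each group, at 24.5 and 27.1 CPM per kb in the same groups. Adamts1 was the most abundant protease, at 5.00 and 7.64 CPM per kb. In TERT WT/WT saline kidneys it was followed by Reck (2.24), Adamts5 (1.77), Adamts9 (1.02), Adamts15 (0.770), Timp1 (0.305), Adamts4 (0.169) and Timp4 (0.0154 CPM per kb). The ranges of Reck and Adamts5 overlapped there, with 1.99 to 2.45 and 1.51 to 2.12 CPM per kb, whereas those of Adamts9 (0.930 to 1.18) and Adamts15 (0.602 to 0.871) did not. Timp4 rested on 2 to 7 counts per library in that group. After ADR, Timp1 stood close behind Adamts1: their means, Timp1 first, were 26.8 and 27.2 CPM per kb in TERT WT/WT ADR kidneys, with ranges of 15.4 to 37.3 and 6.57 to 41.6.

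**Figure D1:**
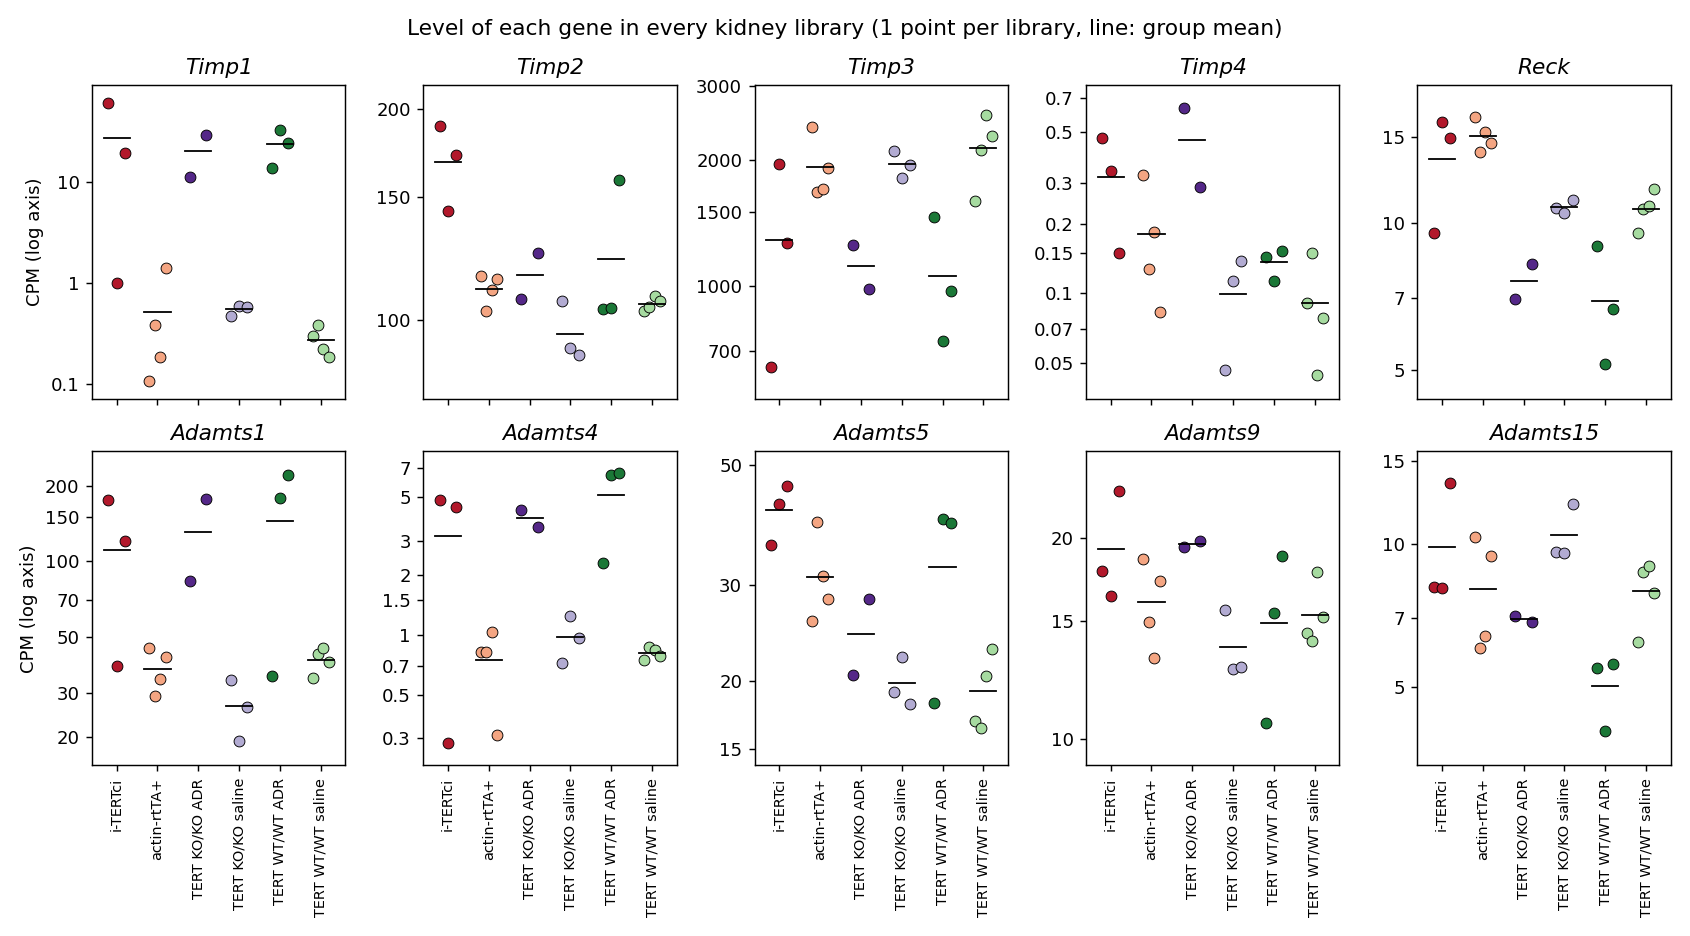
Level of each of the 10 genes in every library used (CPM on a log axis, 1 point per library, line at the group mean), by group. Timp1 lies at 11.2 to 33.1 CPM in the 5 ADR kidneys and at 0.183 to 0.596 CPM in the 7 saline kidneys, while the i-TERTci kidneys run from 1.01 to 60.8 CPM.

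ADR against saline in TERT WT/WT mice asks how these genes behave during physiological repair. Inhibitors moved in opposite directions: Timp1 rose about 86-fold, Timp3 and Reck fell, and Timp2 did not pass the test. Among the proteases Adamts4, Adamts1 and Adamts5 rose and Adamts15 fell. In all, 4 of the 10 members were called higher and 3 lower at an adjusted p under 0.05. Over all 19023 genes tested in this comparison, 15.2% were called higher and 12% lower, 5164 genes in all, and the number was 7810 without ADR replicate 1, 1708 without ADR replicate 2, 2816 without ADR replicate 3 and 3093 and 3061 without saline replicate 3 or 4. The median log2 fold change of the 10 members was 0.39, against 0.01 over all tested genes.

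Timp1 had 13.6, 33.1 and 24.6 CPM in ADR replicates 1, 2 and 3, against 0.295, 0.382, 0.221 and 0.183 CPM in saline replicates 1 to 4. The lowest ADR kidney was therefore far above the highest saline kidney, with 572 counts against 18. The log2 fold change was 6.43 (SE 0.42, n = 3 and 4), with an adjusted p of 4.3e-05 by edgeR's quasi-likelihood test, and the value stayed between 6.12 and 6.71 when each library was left out in turn. Timp3 had 1463, 740 and 973 CPM after ADR, against 1595, 2115, 2558 and 2285 CPM after saline. All 3 ADR kidneys lay below all 4 saline kidneys, although ADR replicate 1 was close to the lowest of them. Its log2 fold change was -1.01 (SE 0.24, adjusted p = 0.0105). Reck had 8.94, 5.12 and 6.64 CPM after ADR, against 9.51, 10.7, 10.8 and 11.7 CPM after saline, again without overlap, and fell by 0.63 on the log2 scale (SE 0.17, adjusted p = 0.0174). Timp2 had 104, 104 and 158 CPM after ADR, against 103 to 108 CPM after saline: 1 ADR kidney was high and the other two lay within the saline range (log2 fold change 0.21, SE 0.15, adjusted p = 0.299). Timp4, with 5 to 9 counts after ADR and 2 to 7 after saline, was too thinly counted to show a difference of this size (log2 fold change 0.57, 95% interval -0.50 to 1.65).

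Adamts4, known as aggrecanase-1, had 2.31, 6.41 and 6.59 CPM after ADR, against 0.749, 0.871, 0.841 and 0.784 CPM after saline. The groups did not overlap, and the lowest ADR kidney was again replicate 1 (log2 fold change 2.65, SE 0.33, adjusted p = 0.000851). Adamts1, a protease that cuts versican and aggrecan, had 34.8, 178 and 221 CPM after ADR, against 34.2, 42.9, 45.2 and 39.7 CPM after saline. Replicates 2 and 3 were well above the saline kidneys and replicate 1 was among them (log2 fold change 1.83, SE 0.47, adjusted p = 0.0154). Adamts5, known as aggrecanase-2, showed the same arrangement on a smaller scale, with 18.2, 39.7 and 39.1 CPM after ADR, against 16.8, 16.3, 20.4 and 22.9 CPM after saline (log2 fold change 0.76, SE 0.23, adjusted p = 0.0312). Adamts1 and Adamts5 are neighbours on chromosome 16, 53059 bases apart on the same strand. Adamts15, another proteoglycan-cutting member, went the other way, with 5.49, 4.03 and 5.59 CPM after ADR, against 6.24, 8.73, 9.03 and 7.92 CPM after saline (log2 fold change -0.66, SE 0.17, adjusted p = 0.0148). Adamts9 had 10.6, 15.5 and 18.8 CPM after ADR, against 14.0 to 17.8 CPM after saline, and the ADR kidneys lay on both sides of the saline range (log2 fold change -0.04, 95% interval -0.37 to 0.30).

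These calls leaned on ADR replicate 2. Without it, Timp1 and Adamts4 were the 2 members still called, and the values were -0.80 for Timp3 (adjusted p = 0.0622), -0.45 for Reck (0.0913), -0.52 for Adamts15 (0.0859), 1.66 for Adamts1 (0.0626) and 0.59 for Adamts5 (0.153). Without ADR replicate 3, the calls of Adamts1 (1.40, adjusted p = 0.0685), Adamts5 (0.60, 0.122) and Reck (-0.60, 0.0604) were lost. Adamts5 also missed the threshold without saline replicate 1 (0.70, adjusted p = 0.0684), 2 (0.69, 0.0808) or 3 (0.80, 0.059), and Reck without saline replicate 4 (-0.57, 0.055). With the liver-like library kept in the shared fit, only the calls of Timp1 (adjusted p = 0.00522) and Adamts4 (0.0239) stood in TERT WT/WT mice.

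**Figure D2:**
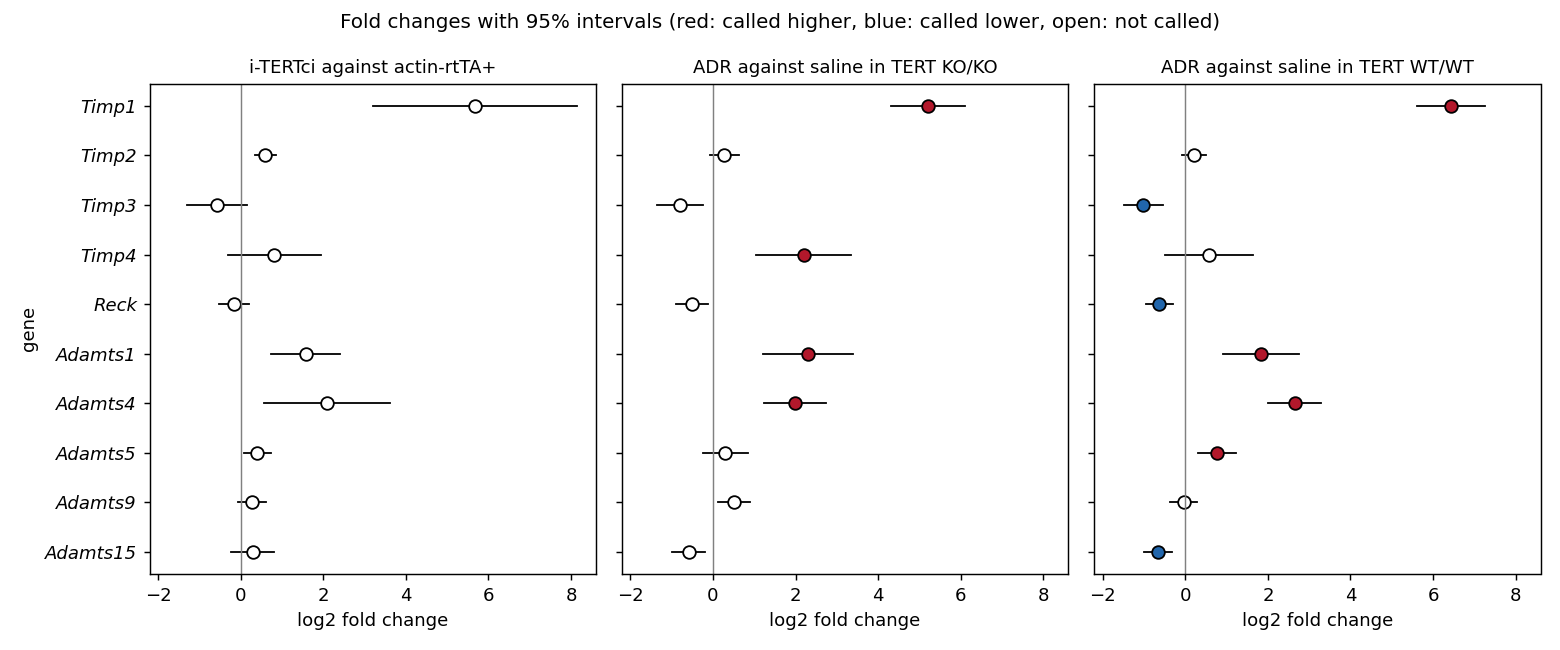
Log2 fold changes (x axis) of the 10 genes (rows) with 95% intervals as lines, for i-TERTci against actin-rtTA+ and for ADR against saline in TERT KO/KO and in TERT WT/WT mice. Filled points passed an adjusted p under 0.05 (red higher, blue lower): none of 10 in i-TERTci, 4 in TERT KO/KO and 7 in TERT WT/WT.

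In TERT KO/KO mice, ADR against saline asks whether the same response occurs without TERT, here with 2 ADR and 3 saline kidneys. Timp1 rose about 37-fold, Adamts1 and Adamts4 rose, and the scarce Timp4 was also called higher. No member was called lower. Against these 4 of 10, 5.26% of the 19023 tested genes were called, 3.83% higher and 1.43% lower. These 1001 genes became 303 without ADR replicate 3 and 217, 213 and 177 without saline replicate 1, 2 or 3. The ranges of 9 of the 10 members did not overlap between ADR and saline, beside 42.1% of all tested genes, a share that is high because only 2 ADR libraries had to differ from 3.

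Timp1 had 11.2 and 29.0 CPM in ADR replicates 1 and 3, against 0.467, 0.596 and 0.581 CPM in saline replicates 1 to 3 (log2 fold change 5.20, SE 0.46, adjusted p = 0.000433). Both ADR kidneys stood apart from all saline kidneys. Adamts4 had 4.26 and 3.51 CPM after ADR, against 0.723, 1.25 and 0.968 CPM after saline (log2 fold change 1.99, SE 0.38, adjusted p = 0.0152). Adamts1 had 83.5 and 178 CPM after ADR, against 33.8, 19.3 and 26.4 CPM after saline, so that the lower ADR kidney still exceeded the highest saline kidney (log2 fold change 2.30, SE 0.56, adjusted p = 0.0376). Timp4 had 30 and 15 counts after ADR, against 2, 4 and 5 counts after saline (log2 fold change 2.20, SE 0.59, adjusted p = 0.0495), a call that was lost with median-ratio scaling (adjusted p = 0.0501), without the filter (0.0763), with these groups fitted alone (0.0746) and without any single one of its 5 libraries (0.0724 to 0.216).

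Timp3, Reck and Adamts15 lay below the saline range in both TERT KO/KO ADR kidneys without passing the test. Timp3 had 1255 and 983 CPM after ADR, against 2099, 1808 and 1941 CPM after saline (log2 fold change -0.80, SE 0.29, adjusted p = 0.112). It passed with DESeq2 (adjusted p = 0.0329) and when these groups were fitted alone (0.0415). Reck had 6.96 and 8.23 CPM, against 10.7, 10.5 and 11.1 CPM after saline (log2 fold change -0.50, adjusted p = 0.15), and Adamts15 had 7.07 and 6.88 CPM, against 9.66, 9.59 and 12.2 CPM after saline (log2 fold change -0.59, adjusted p = 0.102). Timp2 (log2 fold change 0.28, adjusted p = 0.344) and Adamts9 (0.51, adjusted p = 0.144) lay above the saline range, and Adamts5 overlapped it (0.30, adjusted p = 0.536). The call of Adamts1 was lost without ADR replicate 3 (1.65, adjusted p = 0.251) or without saline replicate 1 (2.51, 0.0851), 2 (2.12, 0.121) or 3 (2.29, 0.12), and that of Adamts4 without saline replicate 1 (1.81, 0.0684) or 3 (1.98, 0.0646). With the liver-like library included, Timp1 was the 1 member called (4.66, adjusted p = 0.03), and the values were 1.79 for Adamts1 (0.177) and 1.52 for Adamts4 (0.154).

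Whether these genes differed with TERT status was tested directly, and neither edgeR nor DESeq2 called a member. After saline, TERT KO/KO against TERT WT/WT called 0.00526% of all tested genes, that is 1 gene (Glrx, a glutaredoxin, named after its value was seen), and 1 member had an unadjusted p under 0.05: Adamts15, with 9.66, 9.59 and 12.2 CPM in TERT KO/KO kidneys, against 6.24, 8.73, 9.03 and 7.92 CPM in TERT WT/WT kidneys (log2 fold change 0.39, SE 0.17, adjusted p = 0.566). Timp1 was low in both genotypes, with 20, 21 and 21 counts in TERT KO/KO and 13, 18, 10 and 7 counts in TERT WT/WT kidneys (log2 fold change 0.99, 95% interval -0.01 to 1.98, adjusted p = 0.579). Adamts1 had its 3 TERT KO/KO saline kidneys (33.8, 19.3 and 26.4 CPM) below the lowest TERT WT/WT one, at 34.2 CPM (log2 fold change -0.61, adjusted p = 0.68). These were 2 members above and 1 below the TERT WT/WT range after saline, beside 6.78% and 6.01% of all tested genes, and 1672 genes had an unadjusted p under 0.05, with 21 called by DESeq2. After ADR, 0.0736% of all tested genes were called, 0.0473% higher and 0.0263% lower, with 1458 genes and 2 members at an unadjusted p under 0.05 and 127 genes called by DESeq2. The 14 genes called became 782 without TERT WT/WT ADR replicate 1, 4 and 23 without replicate 2 or 3 of that group, and 0 and 66 without TERT KO/KO ADR replicate 1 or 3, and no member was among them. Timp4 (log2 fold change 1.72, SE 0.55, adjusted p = 0.437), Adamts15 (0.47, SE 0.20, adjusted p = 0.603) and Adamts9 (0.39, SE 0.20, adjusted p = 0.682) had TERT KO/KO values above the TERT WT/WT range, 3 members beside 8.89% of all tested genes, and none lay below it, beside 7.72%. Adamts15 passed the test in neither comparison. It is named for both because its values were seen to lie above the TERT WT/WT range, and both comparisons come from 1 fit with a shared spread.

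The ADR effect itself, taken as TERT KO/KO minus TERT WT/WT, was called for 0% of all tested genes by edgeR, where 2288 genes had an unadjusted p under 0.05 and DESeq2 called 131. The count was 325 without TERT WT/WT ADR replicate 1, 32 without replicate 3 of that group, and 0 to 4 without any other library, with no member among them. No member was called by either tool, and none of the 10 had an unadjusted p under 0.05. The difference was -1.23 for Timp1 (SE 0.63, 95% interval -2.47 to 0.01, adjusted p = 0.45), and the Timp1 levels after ADR overlapped between the genotypes, with 11.2 and 29.0 CPM in TERT KO/KO and 13.6 to 33.1 CPM in TERT WT/WT kidneys. It was 0.21 for Timp3 (interval -0.50 to 0.92), 0.47 for Adamts1 (-0.96 to 1.89) and -0.66 for Adamts4 (-1.66 to 0.33). These intervals include 0. For Timp4 (1.63, interval 0.020 to 3.24, adjusted p = 0.439) and Adamts9 (0.55, interval 0.032 to 1.07, adjusted p = 0.427) the interval, which is narrower than the test, did not reach 0.

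For i-TERTci against actin-rtTA+ kidneys, sampled in the reversal period after inactive TERT was switched off, no member passed the threshold. The study describes podocyte damage and proteinuria while inactive TERT is on and recovery afterwards, and injury and repair cannot be told apart in this comparison. Over all genes, 0.00564% of 17745 were called by edgeR, that is 1 gene (Hmox1, heme oxygenase, named after its value was seen), while 3972 genes and 5 members had an unadjusted p under 0.05 and DESeq2 called 1995 genes and 4 members. The median log2 fold change of the 10 members was 0.50, against 0.02 over all tested genes.

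The 3 i-TERTci kidneys differed widely among themselves. Timp1 had 60.8, 1.01 and 19.5 CPM in i-TERTci replicates 1, 2 and 3, against 0.108, 0.382, 0.184 and 1.40 CPM in actin-rtTA+ replicates 1 to 4. Replicates 1 and 3 were far above every actin-rtTA+ kidney, and replicate 2 lay among them (log2 fold change 5.68, SE 1.26, 95% interval 3.22 to 8.15, adjusted p = 0.0758). Adamts1 had 175, 38.5 and 120 CPM, against 45.0, 29.0, 33.9 and 41.7 CPM in actin-rtTA+ kidneys, in the same arrangement (log2 fold change 1.57, SE 0.42, adjusted p = 0.0922). Adamts4 had 4.80, 0.285 and 4.42 CPM, against 0.819, 0.816, 1.04 and 0.312 CPM, with replicate 2 below the lowest actin-rtTA+ kidney (log2 fold change 2.09, SE 0.78, adjusted p = 0.168). Timp3 had 641, 1959 and 1267 CPM, against 2395, 1675, 1700 and 1916 CPM: replicates 1 and 3 were below the actin-rtTA+ range and replicate 2 was inside it (log2 fold change -0.58, SE 0.37, adjusted p = 0.386).

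Timp2 was the 1 member whose groups did not overlap, with 189, 143 and 172 CPM in i-TERTci kidneys, against 115, 103, 111 and 114 CPM in actin-rtTA+ kidneys, beside 17.2% of all tested genes without overlap, 9.01% above and 8.17% below. Even replicate 2 exceeded all actin-rtTA+ kidneys for this gene (log2 fold change 0.60, SE 0.13, adjusted p = 0.0758). Adamts5 had 35.6, 42.3 and 45.7 CPM, against 25.8, 39.2, 31.2 and 28.2 CPM, so that 1 actin-rtTA+ kidney reached into the i-TERTci range (log2 fold change 0.41, SE 0.16, adjusted p = 0.195). The other 4 members had log2 fold changes of -0.16 (Reck), 0.27 (Adamts9), 0.29 (Adamts15) and 0.82 (Timp4, 8 to 28 counts in i-TERTci and 4 to 15 in actin-rtTA+ kidneys), with adjusted p between 0.396 and 0.649.

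For 6 of the 10 members, i-TERTci replicate 2 lay within the actin-rtTA+ range, and it had the most Tert of the 3 (28.1 CPM, against 17.9 and 4.31 CPM in replicates 1 and 3). Without it, edgeR called 4325 of all tested genes, against 1 with it, and 4 members were called higher: Timp1 (6.23, adjusted p = 0.00182), Timp2 (0.70, 0.00642), Adamts1 (1.97, 0.000326) and Adamts4 (2.62, 0.00159). DESeq2 called the same 4 with all 7 libraries, at adjusted p of 0.000907, 0.00191, 0.00426 and 0.0428 in that order.

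The difference of both effects, i-TERTci minus ADR in WT/WT mice for TERT, was fitted over 19 libraries, and no member was called; 0.00505% of all 19783 tested genes were, that is 1 gene (Gli2, a transcription factor of Hedgehog signalling, named after its value was seen), with 1417 genes at an unadjusted p under 0.05 and 59 called by DESeq2, and 35 called by edgeR without i-TERTci replicate 2 and 34 without WT/WT ADR replicate 1. The 1 member with an unadjusted p under 0.05 was Adamts15, whose difference was 0.94 (SE 0.31, 95% interval 0.33 to 1.55, adjusted p = 0.534): it had a log2 fold change of 0.29 in i-TERTci and of -0.66 after ADR. For Timp1 the difference was -0.77 (interval -3.40 to 1.86), for Adamts1 -0.28 (-1.62 to 1.06), for Timp3 0.42 (-0.42 to 1.26) and for Timp2 0.37 (-0.0049 to 0.75, adjusted p = 0.732). Strain, treatment and time of sampling differ between the experiments, and their parts in such a difference cannot be told apart.

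Because the TIMPs share targets, their transcripts were also set against each other within each library, as shares of the summed CPM per kb of all 4. Timp3 made up 87.9% to 91.8% of TIMP transcripts in the 11 actin-rtTA+ and saline kidneys, Timp2 8.12% to 12.0% and Timp1 at most 0.590%. In TERT KO/KO ADR replicates 1 and 3 the share of Timp1 was 6.49% and 17.6%, and in TERT WT/WT ADR replicates 1 to 3 it was 6.93%, 24.1% and 14.8%. In i-TERTci kidneys it was 34.9%, 0.408% and 9.92%. The ratio of Timp3 to Timp1 was 2.43 to 11.7 in TERT WT/WT ADR kidneys, against 589 to 1362 in TERT WT/WT saline kidneys, and it was 3.69 and 12.2 in TERT KO/KO ADR kidneys, against 331 to 490 in TERT KO/KO saline kidneys. In i-TERTci replicate 1 the ratio was 1.15, so that both transcripts were nearly equal, against 150 to 2423 in actin-rtTA+ kidneys. The sum over all 4 TIMPs was 155 to 222 CPM per kb after ADR in TERT WT/WT mice, against 223 to 342 after saline. The ranges nearly met, at 221.7 in ADR replicate 1 and 222.6 in saline replicate 1, and Timp3 made up most of each sum. Timp4 never exceeded 0.0553% of the sum in the 19 libraries used.

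**Figure D3:**
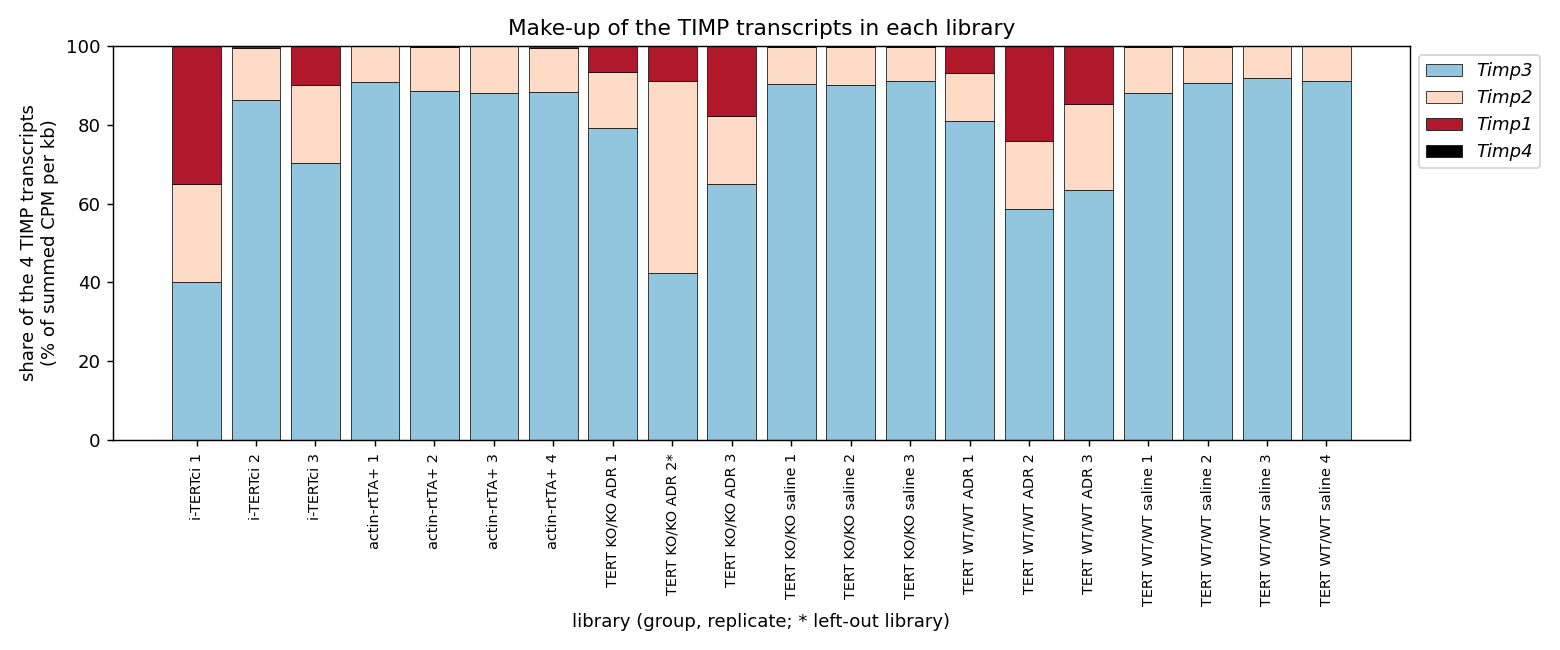
Share of each TIMP in the summed CPM per kb of the 4 TIMP transcripts (y axis, percent), 1 bar per library, with i-TERTci, actin-rtTA+, TERT KO/KO ADR, TERT KO/KO saline, TERT WT/WT ADR and TERT WT/WT saline from left to right. Timp3 fills 87.9% or more of each actin-rtTA+ and saline bar, and Timp1 is visible in i-TERTci replicates 1 and 3 and in all ADR bars.

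Other genes of the same system were counted from lists. After ADR in TERT WT/WT mice, 3 of 12 tested ADAMTS proteases outside the 10 were higher: Adamts2, a procollagen peptidase (log2 fold change 1.20, adjusted p = 0.00233), Adamts12 (1.32, 0.00507) and Adamts16 (1.25, 0.00635). The 1 that was lower was Adamts8 (-1.68, adjusted p = 0.0145), named after its value was seen. Beside these counts stand 15.2% of all tested genes called higher and 12% called lower. Whether the family differs from these shares was not tested. Of 6 tested ADAMTS-like proteins, which lack the protease domain, 3 were higher: Adamtsl4 (1.69, adjusted p = 0.00233), Adamtsl5 (1.52, 0.00414) and Adamtsl2 (0.53, 0.0377). After ADR in TERT KO/KO mice, 1 of 12 and 1 of 6 were higher, Adamts2 (1.26, adjusted p = 0.0145) and Adamtsl4 (1.5, 0.0266). Of all tested genes, 3.83% were higher and 1.43% lower there. In i-TERTci kidneys none of 11 and none of 6 was called, and the smallest p fell to Adamts12 (2.33, adjusted p = 0.0758) and Adamtsl2 (0.60, 0.0829). Adamtsl2 lost its call in TERT WT/WT mice without ADR replicate 2 or 3 or saline replicate 1, 3 or 4 (adjusted p 0.0633 to 0.183), its value being 0.33 without ADR replicate 3. In TERT KO/KO mice Adamts2 lost it without ADR replicate 3 or any saline replicate (0.0511 to 0.114), and Adamtsl4 without any single library of its groups (0.057 to 0.112), and with the liver-like library included both missed the threshold (0.0536 and 0.108). With these lists and those that follow, no gene was called between the genotypes, for the difference of ADR effects or for i-TERTci minus ADR.

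Among the 21 metalloproteinases that TIMPs inhibit, ADR raised 11 and lowered 2 in TERT WT/WT mice, beside 15.2% and 12% of all tested genes. Mmp10 (stromelysin-2) had 21 to 33 counts in ADR kidneys, against 0 in all saline kidneys, Mmp7 (matrilysin) had 23 to 332 counts, against 0 to 5, and Mmp3 (stromelysin-1) had 21 to 139 counts, against 2 to 10. Their adjusted p were 0.00093, 0.00143 and 0.00223. The 2 that were lower, named after their values were seen, were Mmp13 (-1.0, adjusted p = 0.00853) and Mmp28 (-0.54, 0.0263). In TERT KO/KO mice 3 were higher and 1 was lower, beside 3.83% and 1.43% of all tested genes. Mmp10 had 28 and 42 counts after ADR, against 0 to 1 after saline (adjusted p = 0.00601). Mmp19 rose by 2.52 on the log2 scale (adjusted p = 0.00993) and Mmp13 fell by 1.62 (0.00924). Mmp19 missed the threshold without ADR replicate 3 or saline replicate 3 (adjusted p 0.0518 to 0.0568), and with the liver-like library included its value was 7.45 (0.0536), while that of Mmp10 had an adjusted p of 0.0763. The other called gene there was Mmp27 (adjusted p = 0.0129), named after its value was seen. None of the 17 tested in i-TERTci kidneys was called, and the smallest p was that of Mmp7, with 18 to 33 counts in i-TERTci against 0 in all actin-rtTA+ kidneys (adjusted p = 0.0758, and 0.00347 without i-TERTci replicate 2). The median log2 fold change of the list was 0.97 after ADR in TERT WT/WT, 0.96 in TERT KO/KO and 1.05 in i-TERTci, against 0.01, 0.01 and 0.02 over all tested genes.

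Of 7 tested proteoglycans and matrix proteins that ADAMTS proteases cut, 2 were higher after ADR in TERT WT/WT mice, decorin (Dcn, 0.49, adjusted p = 0.00828) and biglycan (Bgn, 0.58, 0.0261), and 2 were lower, Hapln3, a hyaluronan link protein (-0.99, 0.0306), and Comp (-0.69, 0.0491, named after its value was seen). Over all tested genes, 15.2% were higher and 12% lower in this comparison, and 3.83% and 1.43% in TERT KO/KO mice. Dcn was also the 1 called in TERT KO/KO kidneys (0.68, adjusted p = 0.0146), and it led the list in i-TERTci kidneys without passing the threshold (0.88, adjusted p = 0.0758). Bgn and Hapln3 each lost their call without ADR replicate 2 or 3, saline replicate 1 or 2, and a further saline kidney, replicate 3 for Bgn (adjusted p 0.0542 to 0.123) and replicate 4 for Hapln3 (0.0505 to 0.123), and Dcn lost it in TERT KO/KO kidneys without ADR replicate 3 or saline replicate 3 (0.052 to 0.0693) and with the liver-like library included (1.18, 0.0571). Without ADR replicate 3 the value of Bgn was 0.35. Aggrecan (Acan) was among 3 substrates counted too low for the test. Of 11 binding partners, receptors and activators, 3 were higher in TERT WT/WT mice, including the syndecans Sdc1 (1.19, adjusted p = 0.00508) and Sdc4 (0.53, 0.0113), and 2 were lower, including Pcsk6, a proprotein convertase (-0.96, 0.0157). The others, named after their values were seen, were Efemp1, a matrix protein that binds Timp3 (0.95, adjusted p = 0.0173), and Kdr, the VEGF receptor that Timp3 is known to block (-1.23, 0.0257). Sdc1 was the 1 called in TERT KO/KO kidneys (1.14, adjusted p = 0.038), and Fn1, fibronectin, led in i-TERTci kidneys without a call (1.80, 0.0758). Sdc4 lost its call without TERT WT/WT ADR replicate 2 (adjusted p = 0.056), Pcsk6 without ADR replicate 2 or 3 (0.0644 to 0.0705), and Sdc1 in TERT KO/KO kidneys without ADR replicate 3 (0.68) or any saline replicate (0.0953 to 0.322 over these) and with the liver-like library included (4.14, 0.0682).

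Cytokines, their receptors and growth factors known to induce Timp1 or ADAMTS genes formed the last list. It again stands beside 15.2% of all tested genes higher and 12% lower in TERT WT/WT mice, and 3.83% and 1.43% in TERT KO/KO mice. In TERT WT/WT mice 6 of 8 were higher, led by Osmr, the oncostatin M receptor (1.96, adjusted p = 0.000848), Lif, leukemia inhibitory factor (4.59, 0.000925), and Tgfb1 (1.0, 0.00226), and none was lower. In TERT KO/KO kidneys Lif (4.53, adjusted p = 0.00619) and Osmr (1.67, 0.00881) were the 2 of 8 called, Osmr not without ADR replicate 3 (0.0557) or with the liver-like library included (0.128). None of 7 was called in i-TERTci kidneys, where Tgfb2 had the smallest p (1.30, adjusted p = 0.0758), with 12.0 to 13.5 CPM in i-TERTci against 4.51 to 6.48 CPM in actin-rtTA+ kidneys.

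Some cell type markers differed between these groups and others did not. The markers called after ADR stand beside 15.2% of all tested genes higher and 12% lower in TERT WT/WT mice. The shares were 3.83% and 1.43% in TERT KO/KO mice. In TERT WT/WT kidneys the 7 fibroblast markers summed to 480 to 1100 CPM after ADR, against 216 to 239 CPM after saline (5 higher, 1 lower). The 6 macrophage markers summed to 252 to 445 CPM, against 137 to 183 CPM (5 higher), and the 3 markers of injured tubule to 354 to 1618 CPM, against 132 to 245 CPM (3 higher). The 5 podocyte markers summed to 131 to 443 CPM, against 567 to 636 CPM (4 lower), and the 4 proximal tubule markers to 1527 to 6753 CPM, against 7915 to 9679 CPM (2 lower). In each of these lists ADR replicate 1, the kidney with the lowest Timp1, Adamts1 and Adamts4 of its group, stood nearest to the saline kidneys. In TERT KO/KO kidneys the fibroblast sum was 522 and 1149 CPM after ADR, against 232 to 260 CPM after saline (3 higher), the macrophage sum 142 and 417 CPM, against 145 to 172 CPM (3 higher), and the proximal tubule sum 4400 and 2958 CPM, against 7928 to 9059 CPM (none called). The injured tubule sum was 446 and 1073 CPM there, against 123 to 157 CPM (Krt20 and Lcn2 higher). The podocyte sum was 373 and 248 CPM, against 518 to 585 CPM (Synpo lower). In i-TERTci replicates 1, 2 and 3 the fibroblast sum was 2531, 444 and 1827 CPM, against 266 to 400 CPM in actin-rtTA+ kidneys, and the proximal tubule sum 1863, 9325 and 5901 CPM, against 9620 to 11044.5 CPM. The podocyte sum was 213, 1053 and 489 CPM, against 518 to 656 CPM, and the macrophage sum 1093, 159 and 530 CPM, against 110 to 170 CPM. The injured tubule sum was 783, 224 and 433 CPM, against 115 to 194 CPM. The smooth muscle sum was 456, 312 and 310 CPM, against 133 to 210 CPM. Replicate 2 thus lay above the actin-rtTA+ range for fibroblast, podocyte, injured tubule and smooth muscle markers. It lay below that range for proximal tubule markers and within it for macrophage markers. The 3 erythroid markers (Alas2, Hbb-bs and Hba-a1) summed to 1231 to 2639 CPM in TERT WT/WT ADR kidneys, against 360 to 747 CPM after saline (3 higher), to 642 and 427 CPM in TERT KO/KO ADR kidneys, against 423 to 1656 CPM after saline, and to 699 to 2817 CPM in i-TERTci, against 524 to 1056 CPM in actin-rtTA+ kidneys. The 5 endothelial markers summed to 621, 404 and 415 CPM in TERT WT/WT ADR replicates 1 to 3, against 572 to 617 CPM after saline (2 lower), and to 589 and 409 CPM in TERT KO/KO ADR kidneys, against 634 to 668 CPM (none called). Of 4 smooth muscle markers Tagln was higher after ADR in both genotypes, and of 4 distal nephron markers Slc12a3 was lower in TERT WT/WT, while no lymphocyte, adipocyte or hepatocyte marker was called. No marker gene of any list was called in i-TERTci kidneys, and none of these lists had a gene at 0 in a whole group. The part of a changed cell make-up in the levels of the 10 genes was not tested, and in RNA from whole kidney fewer cells of a type and less RNA per cell cannot be told apart.

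**Figure D4:**
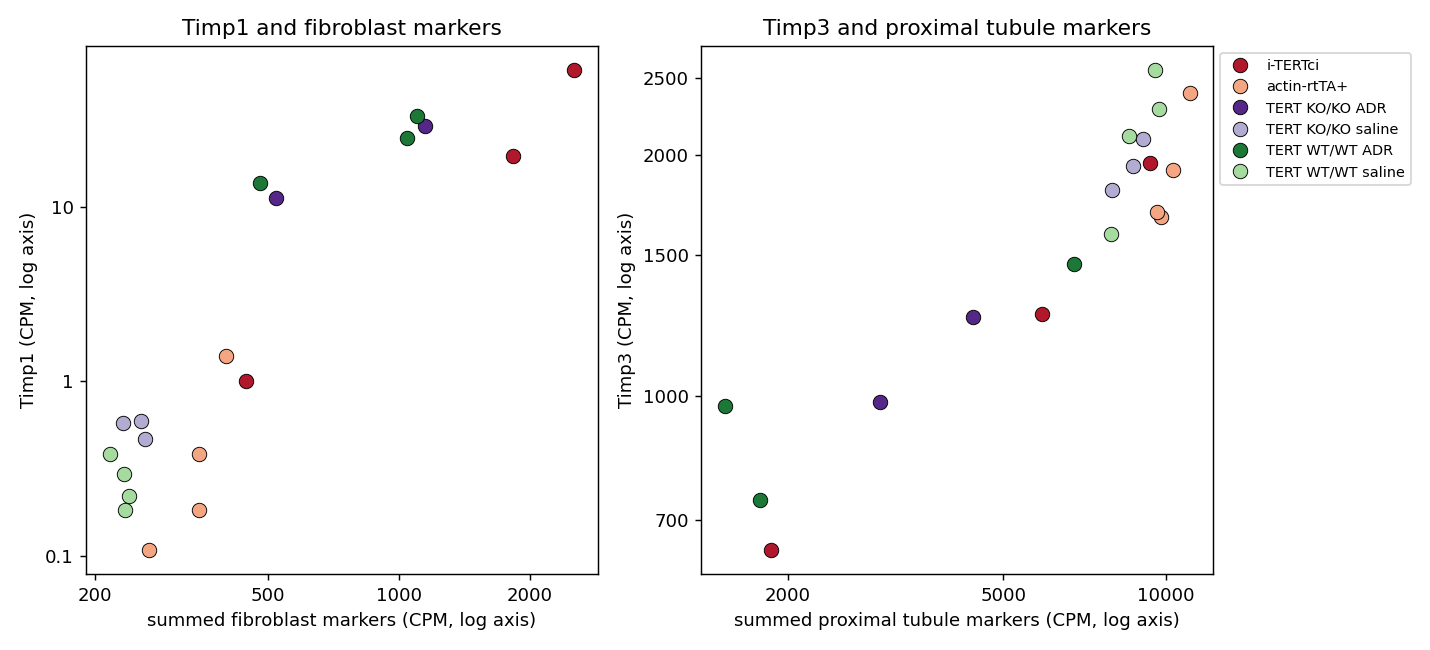
Left, Timp1 against the summed level of 7 fibroblast markers, and right, Timp3 against the summed level of 4 proximal tubule markers (all axes in CPM, log scale, 1 point per library, colours by group). The libraries with 11.2 CPM or more of Timp1 all have 480 CPM or more of fibroblast markers, and the libraries with 1463 CPM or less of Timp3 all have 6753 CPM or less of proximal tubule markers.

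Genes with the most similar course were sought among 13972 genes (13973 for Timp4), by Pearson correlation of log2 CPM over the 19 libraries after centring each experiment. The values are a description only, since the points share 6 groups and their differences. Among the 3 closest to Timp1 were Col1a1, a fibrillar collagen chain that is also among the fibroblast markers above (0.979), and Kifc1, a spindle kinesin (0.975). Closest to Timp3 were Fmo1, a flavin monooxygenase (0.976), Abcg2, an efflux transporter (0.974), and Acss1, a mitochondrial acetyl-CoA synthetase (0.972). Adamts1 ran closest to Cxadr (0.983), Morf4l2 (0.979) and F2rl1, the protease-activated receptor PAR2 (0.978). Reck ran closest to Gm33472 and Epas1, a hypoxia-inducible factor (both 0.954), Adamts4 to Arhgap8 (0.955) and Timp2 to Kank2 (0.927). The highest values were lower for Adamts5 (Gm8995, 0.911), Adamts9 (Ttbk2, 0.879), Adamts15 (Ccdc8, 0.867) and Timp4 (Hgh1, 0.823).

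Several members lie across other genes in the annotation (GENCODE M21, GRCm38), which matters because the strand setting of the counting is not given in the sources used here. Timp1 (chromosome X, 20870166 to 20874735, plus strand) lies inside Syn1 on the opposite strand, with no shared exonic base, and Syn1 had 4 to 232 counts per library. Timp3 (chromosome 10, 86300372 to 86349506, plus strand) shares 1733 exonic bases, 21.3% of its exons, with Syn3 on the opposite strand, which had 121 to 391 counts in the 19 libraries used, against 32649 to 115615 for Timp3. Timp4 (chromosome 6, 115241892 to 115252205, minus strand) shares 90 exonic bases with Syn2, whose 244 to 725 counts far exceed the 2 to 30 counts of Timp4, so that its level is uncertain. Adamts4 lies on chromosome 1 (171250421 to 171260637, plus strand). Adamts9 (chromosome 6, 92772699 to 92943492, minus strand) shares 1381 exonic bases, 9.2% of its exons, with A730049H05Rik (126 to 497 counts). These have no exonic overlap with another gene: Timp2 on chromosome 11 (118301069 to 118355740, minus strand), Reck on chromosome 4 (43875530 to 43944806, plus strand), Adamts1 on chromosome 16 (85793827 to 85803113, minus strand), Adamts5 beside it (85856173 to 85901828, minus strand) and Adamts15 on chromosome 9 (30899155 to 30922452, minus strand).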

How the data were processed

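Whole-kidney RNA-seq counts per gene were used as deposited. According to the study's methods and the submitters' processing notes, the authors trimmed paired reads with Trimmomatic, aligned them to mm10 with STAR and analysed them with DESeq2; the counting program, its strand setting and the annotation release are not given in the sources used here. Identifiers were named with GENCODE M21 (55144 of 55471 matched). The counts were tested with edgeR 4.0.16 in R 4.3.3 (filterByExpr, TMM, robust quasi-likelihood fit, 1 coefficient per group, Benjamini-Hochberg over all tested genes, threshold 0.05), on 7 libraries for i-TERTci, 12 for ADR and 19 for the difference between them; the fit shares 1 spread over its groups. CPM values use TMM-scaled totals of the tested genes, apart from TERT KO/KO ADR replicate 2, given over its own total and left out of fits. Intervals are estimates plus or minus 1.96 SE. Libraries are from separate mice, and no 2 agreed within sampling noise. Alternatives were DESeq2 1.42.0, median-ratio scaling, other filters, a replicate block, other fits and leaving out each library. All 10 members are named, with the 3 called genes of smallest p of each list, or the 1 of smallest p where none was called. The members, lists and the left-out library were chosen with earlier results of these data known. The script was tested on simulated data. Sequences are from RefSeq (GRCm38.p6). Some similar or overlapping genes are not reported here.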

Additional observations from a re-analysis of the deposited data

How the results depend on the processing

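Members called changed with these settings, and the cause was not tested. For ADR against saline in TERT WT/WT mice (4 higher, 3 lower), 2 were called higher without the filter on low counts (Adamts1 1.82, adjusted p = 0.0651, and Adamts5 0.75, 0.0801, were lost), and 2 higher and 0 lower with TERT KO/KO ADR replicate 2 in the fit. Leaving out each library gave 2 to 4 higher and 0 to 3 lower. For the same contrast in TERT KO/KO mice (4 higher, 0 lower), 2 were called higher without the filter and with the replicate block, 1 higher with TERT KO/KO ADR replicate 2, and 1 lower (Timp3) by DESeq2 and with the compared groups fitted alone. Leaving out each library gave 1 to 3 higher and 0 lower. For i-TERTci against actin-rtTA+ (0 called), DESeq2 called 4 higher, and leaving out each library gave 0 to 4.

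No label says that replicate numbers pair the mice. Same-numbered deviations correlated at -0.005, 0.01 and 0.12 for ADR against saline in TERT WT/WT, at -0.07 and 0.069 in TERT KO/KO, at -0.123, 0.078 and -0.084 for i-TERTci, and at -0.34, 0.012 and -0.014 for genotype after saline. For genotype after ADR they were 0.361 and 0.241, which with 2 pairs does not show that the numbers pair the mice. With the replicate block, Adamts1 lost its call in WT/WT (1.67, adjusted p = 0.0713) and KO/KO mice (2.15, 0.0914), as did Timp4 (2.27, 0.0946).

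Directions turned only in members not called in the comparison concerned. These were Adamts9 in TERT WT/WT (0.0026 where 1 CPM was the lowest mean allowed) and Timp4 for i-TERTci minus ADR (-0.063 with the replicate block). With TERT KO/KO ADR replicate 2 they were Timp2 (-0.12) and Adamts5 (-0.21) for ADR in TERT KO/KO, Timp3 (-0.48) and Adamts9 (-0.047) for genotype after ADR, and Timp2 (-0.34), Timp3 (-0.35), Reck (-0.015), Adamts1 (-0.050) and Adamts15 (-0.36) for the difference of ADR effects. Leaving out each library gave, for ADR in TERT WT/WT, -0.23 to 0.16 (Adamts9) and -0.019 to 0.32 (Timp2). For genotype after saline it gave -0.037 to 0.15 (Adamts5), -0.040 to 0.065 (Reck) and -0.22 to 0.45 (Timp4). For genotype after ADR it gave -0.79 to 0.29 (Adamts1), -0.044 to 0.36 (Reck), -1.08 to 0.28 (Timp1), -0.18 to 0.16 (Timp2) and -0.13 to 0.39 (Timp3). For the difference of ADR effects it gave -0.18 to 0.91 (Adamts1), -0.074 to 0.20 (Adamts15), -0.062 to 0.35 (Reck), -0.047 to 0.30 (Timp2) and -0.0038 to 0.52 (Timp3). For i-TERTci it gave -0.0053 to 0.42 (Adamts15) and -0.31 to 0.028 (Reck), and for i-TERTci minus ADR -0.75 to 0.16 (Adamts1), -2.15 to 0.48 (Timp1) and -0.17 to 0.67 (Timp4).

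Counts over all genes moved by more than 1.5 times as follows. DESeq2 called 1995 for i-TERTci (edgeR 1), 2143 for ADR in TERT KO/KO (1001), 21 and 127 for genotype after saline and ADR (1 and 14), 131 for the difference of ADR effects (0) and 59 for i-TERTci minus ADR (1). Without the filter, 23 were called for i-TERTci, 6 and 41 for genotype after saline and ADR, 23 for the difference of ADR effects and 4 for i-TERTci minus ADR. With TERT KO/KO ADR replicate 2, 894 were called in WT/WT (5164), 295 in KO/KO mice and 0 in each of the genotype comparisons and for i-TERTci minus ADR. Compared groups fitted alone gave 1710 for ADR in TERT KO/KO, 2 for genotype after saline and 0 after ADR. The replicate block gave 1 for genotype after ADR and 2 for i-TERTci minus ADR. Median-ratio scaling and the 1 CPM minimum each gave 0 for i-TERTci, and the minimum 0 for genotype after saline. Leaving out each library gave 0 to 4325 for i-TERTci, 1708 to 7810 for ADR in TERT WT/WT, 177 to 1106 in TERT KO/KO, 0 to 1 and 0 to 782 for genotype after saline and ADR, 0 to 325 for the difference of ADR effects and 0 to 35 for i-TERTci minus ADR. This minimum leaves out Timp4, which has no value there. The low counts of Timp4 and Adamts4 limit what their tests can show.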
